A study of Mus musculus with 7 samples.

Results

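B lineage genes are described here in RNA from mouse cortical bone, as 34 genes that B cells use from their first committed precursors to the mature naive stage. They were listed by name, found by gene symbol, and make up 34 of the 27179 genes counted. RNA came from femora of 12-week-old female C57BL/6 mice, whose bone ends were cut off and whose marrow was flushed out before freezing. There were 3 libraries with the Dmp1Cre.EfnB2f/f label and 4 labelled Dmp1Cre. Mice of both groups carried Cre recombinase driven by a 10-kb stretch of the Dmp1 promoter, which is active in late osteoblasts and osteocytes. The former were in addition homozygous for a floxed allele of Efnb2, the gene of the membrane ligand EphrinB2, and the latter were the control. The Cre was not directed at B cells. The labels give parent crosses: Dmp1Cre.EfnB2f/f 1 and 2 came from 76x78, controls 1 and 2 from 85x87, Dmp1Cre.EfnB2f/f 3 and control 3 from 47x42, and control 4 from 84x86. By the study's methods, femora of both genotypes were collected on each of 2 days, 2 Dmp1Cre.EfnB2f/f and 3 control samples on the first and 1 of each on the second. The labels do not say which libraries belong to which day, so no day term was fitted here.

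B cells are made in bone marrow. A precursor under the control of the transcription factors Tcf3 (E2A), Ebf1 and Pax5 responds to IL-7, recombines its heavy chain genes with the Rag1 and Rag2 recombinase, and shows the new heavy chain on its surface with a surrogate light chain, built from Vpreb and lambda5 (Igll1) proteins. The surrogate chain is switched off after this stage, and the cell leaves for the spleen once a light chain has been made. The mature naive B cell, which also recirculates back to marrow, carries receptors of follicles and blood such as CD21 (Cr2), CD23 (Fcer2a) and CXCR5.

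All 34 genes were detected in flushed bone, and 33 of them had at least 10 counts in every library. Vpreb2 had 3 to 24. Library totals were 17245556 to 22075778 counts. Levels below are CPM, counts scaled to a common total over the tested genes, with TMM factors that correct for composition. The receptor chain genes Cd79a and Cd79b, which mark the lineage, had counts in every library of both groups. In bulk RNA, fewer cells of a type and less RNA per cell cannot be told apart. Levels were also compared per gene length, as RPKM, the CPM divided by the gene length in kilobases that came with the counts. Cd74, the invariant chain of class II antigen presentation, had the highest control median at 354.3 RPKM. Cd79b at 73.9 RPKM and Cd37 at 61.4 RPKM followed. Of the precursor genes Vpreb3 was highest at 42.2 RPKM. The lowest levels were those of Rag2 at 0.893 RPKM, Vpreb2 at 1.19 RPKM and Cr2 at 1.54 RPKM.

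Whole-gene counts of the targeted gene were not lower in the libraries with the Dmp1Cre.EfnB2f/f label. Efnb2 was at 17.9, 13.1 and 11.8 CPM in these libraries and at 8.49, 7.93, 6.44 and 6.36 CPM in the controls. It was higher in each of the former, with a log2 fold change of 0.96 (SE 0.21). The edgeR p was 0.0016 before and 0.511 after adjustment. With DESeq2 and with the weighted limma analysis described below, Efnb2 had an adjusted p under 0.05. These called 0.477% and 14.9% of all genes. The counts are over the whole gene in bulk bone, and not over its floxed part or in osteocytes alone. In the study, PCR aimed at the targeted region found Efnb2 effectively targeted in sorted osteocytes of separate mice and retained in other cells. These counts therefore cannot decide whether the deletion took place, and the groups are named throughout by their labels. Controls 1 and 4 stood apart from the other 5 libraries on the first principal component, which held 56.0% of the variance. The same 2 libraries differed in how counts depended on base composition. Over 13369 genes, a gene's log2 deviation from its mean rose with each 10 percentage points of transcript GC content by 0.45 in control 1 and by 0.50 in control 4, while the slope was between -0.27 and -0.02 in the other 5 libraries. Results below are therefore also given with the dependence of each library on GC content and length removed, a setting chosen after the data were seen.

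No B lineage gene passed the threshold between the genotypes. With edgeR's quasi-likelihood test, 0 of 34 members had an adjusted p under 0.05, as did 0% of the 15098 genes tested, and the members' adjusted p ran from 0.511 to 0.995. DESeq2 also called 0 of 34, against 0.477% of all genes. In the libraries with the Dmp1Cre.EfnB2f/f label, 18 members had a higher fitted level and 16 a lower one, with a median log2 fold change of 0.01, the same as the median of 0.01 over all genes tested. At an unadjusted p under 0.05, Ebf1 was the single member on the higher side, where 4.63% of all genes were, and Ltb the single member on the lower side, where 5.03% were. The groups did not overlap for Ebf1, which was higher (5.05% of all genes), and for Cd37 and Cxcr5, which were lower (6.3% of all genes). These counts are close to the background or below it. A limma analysis of quantile-normalized log2 CPM with sample quality weights, like that of the study but without its block for the day of collection, called 11 of 34 members at an adjusted p under 0.05, where it called 14.9% of all genes. Of these 9 were higher (Vpreb3, Rag1, Rag2, Ebf1, Pax5, Bach2, Cd79b, Blnk and Fcrla) and 2 lower (Fcer2a and Cxcr5). The same limma analysis without the weights called 0 of 34.

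**Figure D1:**
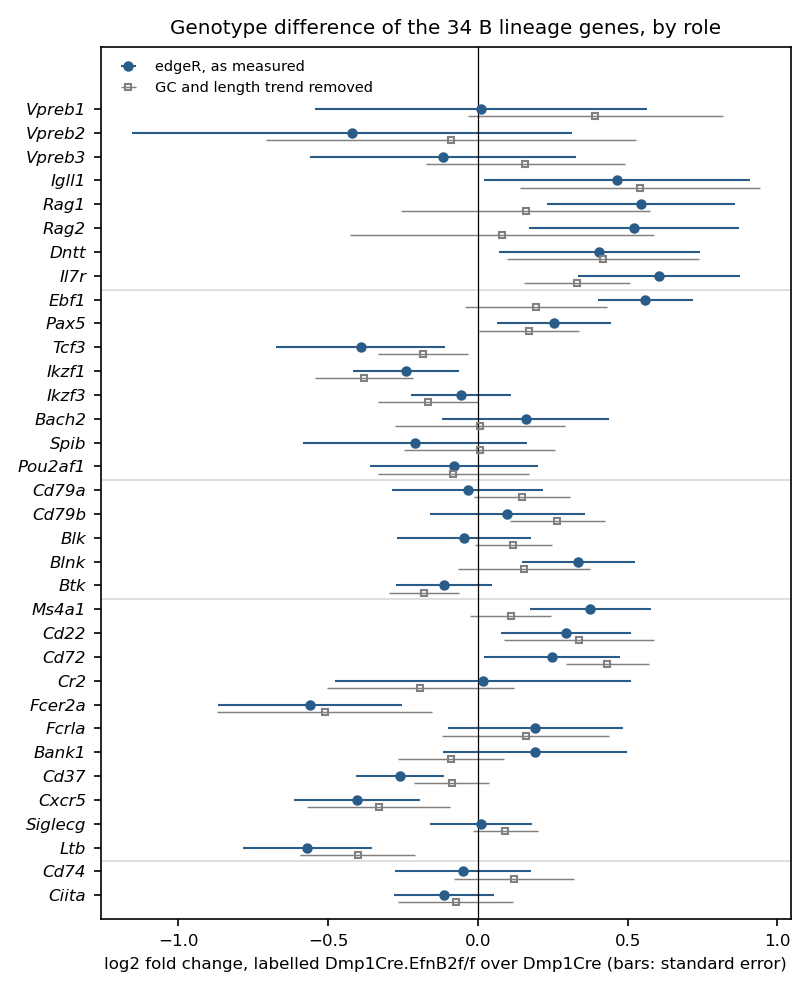
Log2 fold change of each of the 34 B lineage genes (x axis, libraries with the Dmp1Cre.EfnB2f/f label over Dmp1Cre controls, n = 3 and 4), grouped by role with grey lines between groups; filled points are edgeR estimates as measured, open squares the same after removal of each library's GC and length trend, and bars are standard errors. Fitted values run from -0.57 for Ltb to 0.61 for Il7r, and the open square of Ebf1 lies closer to 0 than its filled point.

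Precursor genes were the group with the most uneven levels among the controls. These are the surrogate light chain genes Vpreb1, Vpreb2 and Igll1, the related pre-B cell gene Vpreb3, the recombinase genes Rag1 and Rag2, Dntt, which adds untemplated bases to recombining gene ends, and Il7r, the IL-7 receptor chain. Of the 8, 6 had a higher fitted level in the libraries with the Dmp1Cre.EfnB2f/f label, with a median log2 fold change of 0.44, and 0 passed the threshold. Without controls 1 and 4, the libraries that stood apart, 8 of 8 were higher, with a median of 1.08 and again 0 past the threshold. These 2 were the upper controls in 7 of the 8 genes, so leaving them out raises the fold changes of these 7. The rise to 1.08 is therefore no separate evidence of a difference. Without Dmp1Cre.EfnB2f/f 1 the median was 0.16. Once the GC and length trend was removed, 7 of 8 were higher and the median was 0.24. The highest control exceeded the lowest by a median of 3.03-fold over the 8 genes, against 1.56-fold over the 13 mature B cell genes.

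Promoter sequences are shown for precursor genes whose levels moved together across libraries and for Cr2, whose levels ran the other way. Each window is the 250 bases before a transcription start (RefSeq, GRCm38.p6), read 5′ to 3′ on the gene's strand. The Vpreb2 and Vpreb3 windows lie inside the annotated spans of their genes, and the Cr2 window does so in part. Capitals mark matches to the E-box CAGGTG, the form of E-box that E2A proteins bind, or to CCCNNGGG, the core letters bound by EBF1, each searched on both strands.
Vpreb1, chr16:16869256-16869505, minus strand: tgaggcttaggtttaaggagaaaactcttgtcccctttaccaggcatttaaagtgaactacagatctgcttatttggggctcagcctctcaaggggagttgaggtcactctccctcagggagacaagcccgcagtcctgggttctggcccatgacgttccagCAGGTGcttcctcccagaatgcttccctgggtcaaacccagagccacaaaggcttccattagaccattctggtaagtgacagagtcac
Vpreb2, chr16:17980315-17980564, plus strand: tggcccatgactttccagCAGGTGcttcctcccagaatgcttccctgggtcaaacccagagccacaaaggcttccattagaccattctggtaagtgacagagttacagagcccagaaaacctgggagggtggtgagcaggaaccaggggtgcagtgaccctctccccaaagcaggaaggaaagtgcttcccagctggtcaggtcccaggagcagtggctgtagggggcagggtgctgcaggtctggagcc
Igll1, chr16:16863986-16864235, minus strand: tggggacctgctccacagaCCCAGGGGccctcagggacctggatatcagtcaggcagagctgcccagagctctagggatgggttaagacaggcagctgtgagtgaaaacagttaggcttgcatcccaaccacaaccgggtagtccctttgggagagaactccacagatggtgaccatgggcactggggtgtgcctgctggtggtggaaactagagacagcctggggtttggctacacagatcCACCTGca
Rag1, chr2:101649533-101649782, minus strand: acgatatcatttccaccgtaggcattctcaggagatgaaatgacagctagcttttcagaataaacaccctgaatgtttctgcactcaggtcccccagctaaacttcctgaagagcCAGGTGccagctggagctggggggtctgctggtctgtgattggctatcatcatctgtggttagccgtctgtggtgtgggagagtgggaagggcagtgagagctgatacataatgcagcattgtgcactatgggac
Vpreb3, chr10:75948050-75948299, plus strand: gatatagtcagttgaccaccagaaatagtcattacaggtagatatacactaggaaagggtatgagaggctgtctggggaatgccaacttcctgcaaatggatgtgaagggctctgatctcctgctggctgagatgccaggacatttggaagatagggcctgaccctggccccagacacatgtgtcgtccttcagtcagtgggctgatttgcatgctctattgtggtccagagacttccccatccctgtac
Cr2, chr1:195176720-195176969, minus strand: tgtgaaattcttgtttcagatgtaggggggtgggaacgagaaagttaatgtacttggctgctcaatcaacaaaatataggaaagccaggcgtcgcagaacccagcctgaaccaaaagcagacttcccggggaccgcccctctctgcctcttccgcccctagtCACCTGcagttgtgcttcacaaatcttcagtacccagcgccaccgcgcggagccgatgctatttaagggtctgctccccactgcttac
The E-box letters were present in Vpreb1, Vpreb2, Igll1 and Rag1, 4 of the 8 precursor genes, and also in Cr2. Vpreb3, Rag2, Dntt and Il7r had none in this window. The letters were not particular to precursor genes, since 7 of the 9 mature genes with a promoter also held them. Over all members with a promoter in the table, 13 of 27 genes held the E-box, compared with 19.4% of 27025 genes. The EBF1 core was found in 5 of these 27 members, compared with 13.4% of all genes, and Igll1 was the single precursor gene among them. The Vpreb1 and Vpreb2 windows share an unbroken stretch of 91 bases with the E-box in it. This stretch begins 94 bases before the start used for Vpreb1 and 238 bases before that used for Vpreb2. The longest transcripts of these 2 genes are 97.5% identical over 686 aligned bases. Of the 100-base windows of Vpreb2 transcripts, 14.7% occur unchanged in Vpreb1, so reads could be split between these genes and both values are uncertain.

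The surrogate light chain genes and Vpreb3 shared part of their order over the libraries, with control 4 the highest of the 7 in each. Vpreb1 was at 6.00, 3.29 and 6.17 CPM in the libraries with the Dmp1Cre.EfnB2f/f label and at 5.75, 1.88, 2.52 and 10.3 CPM in controls 1 to 4. Igll1, its partner in the surrogate chain, was at 14.9, 7.95 and 14.2 CPM and at 10.7, 3.94, 5.85 and 15.3 CPM. For both genes control 4 was the highest control and control 2 the lowest, and the groups overlapped. Vpreb3, which encodes a chain-like protein of the pre-B cell's secretory pathway, was at 22.1, 22.5 and 29.1 CPM in the libraries with the Dmp1Cre.EfnB2f/f label. In the controls it was at 36.8, 12.1, 14.0 and 43.6 CPM, above all 3 of these libraries in controls 1 and 4 and below all 3 in controls 2 and 3. Vpreb2 had 0.389, 0.165 and 0.843 CPM against 0.725, 0.171, 0.293 and 1.30 CPM in the controls, at few counts.

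The recombinase genes showed the same split of the controls. Rag1 was at 67.5, 50.0 and 70.1 CPM in the libraries with the Dmp1Cre.EfnB2f/f label and at 57.5, 24.8, 31.6 and 57.3 CPM in the controls. Its mean was 62.5 ± 10.9 CPM (SD, n = 3) and 42.8 ± 17.1 CPM (SD, n = 4), with a log2 fold change of 0.55 (SE 0.31) with an edgeR adjusted p of 0.526. The groups overlapped, with controls 1 and 4 within the range of the other group and controls 2 and 3 below it. Rag2, the second recombinase subunit, was at 5.56, 3.95 and 5.11 CPM against 3.83, 2.22, 2.166 and 5.33 CPM. Its span overlaps that of Iftap, another protein-coding gene, which adds to the uncertainty of its counts. Dntt was at 32.1, 11 and 22.3 CPM in the libraries with the Dmp1Cre.EfnB2f/f label, both the highest and the lowest library of the series, and at 15.3, 14.3, 14.5 and 21.7 CPM in the controls.

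Il7r did not follow the other precursor genes. It was at 48.1, 34 and 31.4 CPM in the libraries with the Dmp1Cre.EfnB2f/f label and at 22.7, 35.4, 24.9 and 16.4 CPM in the controls, where control 2 was the highest and control 4 the lowest. The means were 37.8 ± 8.99 CPM (SD, n = 3) and 24.9 ± 7.88 CPM (SD, n = 4), with a log2 fold change of 0.61 (SE 0.27) and an edgeR adjusted p of 0.511. Control 2 alone overlapped with the other group. T cells and innate lymphoid cells also use this receptor. Of 13 T and NK cell markers, 4 had a higher and 9 a lower fitted level in the libraries with the Dmp1Cre.EfnB2f/f label, with log2 fold changes from -0.52 to 0.44 and 0 past the threshold, and their part in the Il7r values was not tested. With the GC and length trend removed, the log2 fold change was 0.33 (SE 0.18) for Il7r and 0.16 (SE 0.42) for Rag1.

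**Figure D2:**
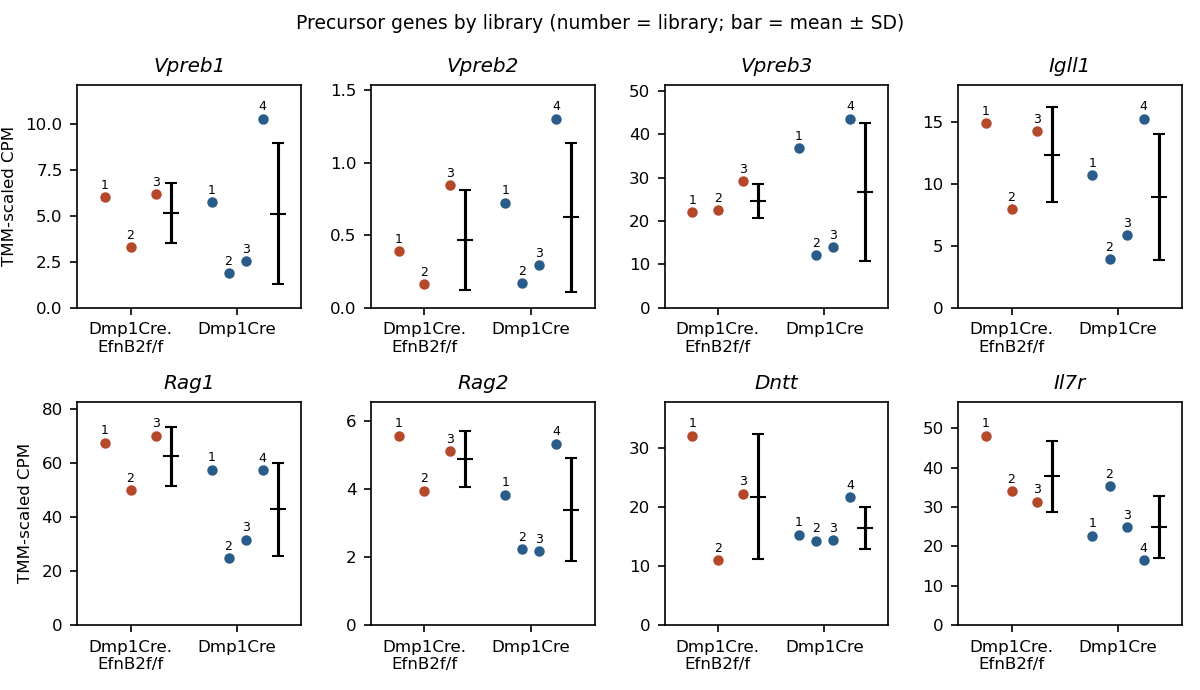
TMM-scaled CPM (y axis, from 0) of the 8 precursor genes in each library, with the library's number beside its point and the mean ± SD (n = 3 and 4) as a black bar to the right of each group. Controls 2 and 3 are the lowest controls for every gene except Il7r, whose lowest control is number 4.

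Controls 1 and 4 were both above controls 2 and 3 in 7 of the 8 precursor genes, the exception being Il7r, where both were below. Among all 14434 genes with a GC value, controls 1 and 4 were both above in 36.5% and both below in 32.6%. With the GC and length trend removed, they were still both above in the same number of precursor genes, 7 of 8, against 25.3% of all genes. The split was not particular to precursor genes. Controls 1 and 4 were both above in 10 of the 13 transcription factor and receptor signalling genes, with and without removal of the trend. Controls 1 and 2 came from the same parent cross and lay at different ends of this split. Within the cross that held both genotypes, Dmp1Cre.EfnB2f/f 3 was above control 3 in 8 of 8 precursor genes, by 0.32 for Il7r to 1.21 for Igll1 on the log2 scale of these CPM. That is a difference between 2 libraries, with no replicate.

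Transcription factors of the lineage held the member with the lowest p. Ebf1, which with Pax5 commits cells to the B lineage, was at 68.1, 59.6 and 56.4 CPM in the libraries with the Dmp1Cre.EfnB2f/f label and at 48.3, 39.8, 36.4 and 42.2 CPM in the controls. Every library of the former was above every control. The means were 61.4 ± 6.07 CPM (SD, n = 3) and 41.7 ± 5.02 CPM (SD, n = 4), for a log2 fold change of 0.56 (SE 0.16). The edgeR p was 0.00692 before and 0.511 after adjustment, and a two-sided exact permutation test gave p = 0.0286, the smallest that 35 assignments allow. With each library's GC and length trend removed, the log2 fold change was 0.20 (SE 0.24) and the unadjusted edgeR p 0.433. The longest Ebf1 transcript has a GC content of 43.1%, below the median of 49.9% over all genes.

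Ebf1 is also active in marrow stromal cells and in fat cells. A list of 8 stromal and adipocyte markers summed to 1721 to 2091 CPM in the libraries with the Dmp1Cre.EfnB2f/f label and to 1239 to 1927 CPM in the controls, and 8 of its 8 genes had a higher fitted level in the former, with 0 past the threshold. The part of these cells in the Ebf1 difference was not tested. Pax5, which is restricted to B cells within blood, was at 29.2, 25.7 and 28.0 CPM against 22.6, 19.8, 20.0 and 30.3 CPM, so that control 4 was the highest library of the series.

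Tcf3, the gene of the E2A proteins that act upstream of Ebf1, leaned the other way. It was at 122, 135 and 166 CPM in the libraries with the Dmp1Cre.EfnB2f/f label and at 199, 135, 131 and 274 CPM in the controls, with means of 140.9 ± 22.3 CPM (SD, n = 3) and 184.8 ± 66.7 CPM (SD, n = 4). The log2 fold change was -0.39 (SE 0.28), the edgeR adjusted p was 0.570, and without controls 1 and 4 the value was 0.08. Removing the GC and length trend gave -0.18 (SE 0.15). Tcf3 has one of the most GC-rich transcripts of the members, at 61.0%. Spib, a relative of Spi1 used in B cells and plasmacytoid dendritic cells, was at 84.2, 103 and 122 CPM against 151, 66.3, 72.3 and 187 CPM. Controls 1 and 4 were again above and controls 2 and 3 below the other group. Bach2, a repressor that holds B cells from plasma cell fate, showed the same split at 72.9, 71.5 and 76.9 CPM against 84.7, 46.1, 43.7 and 89.7 CPM. So did Pou2af1, a coactivator of octamer factors, at 54.3, 59.2 and 69.4 CPM against 75.8, 47.5, 42.5 and 92.0 CPM.

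The Ikaros family genes varied less. Ikzf1 (Ikaros), which all blood cells use, was at 216 to 265 CPM in the libraries with the Dmp1Cre.EfnB2f/f label and 249 to 326 CPM in the controls. Ikzf3 (Aiolos), which is more restricted to lymphocytes, was at 47.4 to 54.9 CPM and 46.4 to 62.4 CPM.

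Genes of the B cell receptor and its signalling had no member with groups apart. Cd79a and Cd79b encode the signalling chains shared by the pre-B and the mature receptor and are thus markers of the lineage from early on. Cd79a was at 40.5, 47.4 and 38.3 CPM in the libraries with the Dmp1Cre.EfnB2f/f label and at 56.4, 34.7, 28.9 and 52.3 CPM in the controls. Cd79b was at 83.2, 117 and 92.2 CPM and at 107, 70.2, 64.2 and 123 CPM. Blk, a Src family kinase of B cells, was at 26.9, 32.4 and 29.5 CPM and at 37.6, 24.2, 22.9 and 37.3 CPM. For all 3 genes controls 1 and 4 were above the other controls. The lowest p of this group was that of Blnk, the adaptor that links the receptor to downstream enzymes. It was at 39.4, 39.9 and 42.6 CPM against 29.7, 30.2, 26.5 and 42.4 CPM, so that 3 controls were below all libraries of the other group and control 4 was within its range. The means were 40.6 ± 1.76 CPM (SD, n = 3) and 32.2 ± 7.01 CPM (SD, n = 4), with a log2 fold change of 0.34 (SE 0.19), an edgeR adjusted p of 0.522 and a log2 fold change of 0.15 (SE 0.22) with the GC and length trend removed. Btk, the kinase missing in X-linked agammaglobulinaemia and also present in myeloid cells, was at 58.9, 61.6 and 62.7 CPM against 53.2, 73.9, 67.5 and 69.7 CPM, with a log2 fold change of -0.11 (SE 0.16) and an edgeR adjusted p of 0.755.

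Mature B cell genes, 13 in all with the antigen presentation genes, were close to even between the genotypes, with 7 higher and 6 lower, a median log2 fold change of 0.01 and 0 past the threshold. Across the controls, however, several of them ran opposite to the precursor genes. Cr2, the complement receptor CD21 of mature and marginal zone B cells, was at 12.7, 11.1 and 9.28 CPM in the libraries with the Dmp1Cre.EfnB2f/f label and at 4.87, 19.7, 14.2 and 4.78 CPM in the controls. Control 2 had the highest level and control 4 the lowest, the reverse of Vpreb1 and Igll1 among the controls. Fcer2a, the low-affinity IgE receptor CD23 of follicular B cells, was at 7.34, 6.47 and 4.85 CPM against 7.92, 11.9, 11.5 and 5.43 CPM. Bank1, a scaffold of receptor signalling, was at 26.2, 33.7 and 23.1 CPM against 14.8, 36.1, 27.6 and 18.5 CPM. Ms4a1, the gene of CD20, was at 39.6, 48.4 and 37.5 CPM against 27.4, 39.0, 37.1 and 25.6 CPM, also lowest in controls 1 and 4. In Cd22, an inhibitory receptor of B cells, these were again the lowest controls, at 31.5 and 34.9 CPM against 52.4 and 38.4 CPM in controls 2 and 3, and the other group was at 39.6 to 57.0 CPM.

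Controls 1 and 4 were both below controls 2 and 3 in 5 of the 13 mature genes (Ms4a1, Cd22, Cr2, Fcer2a and Bank1) and both above in 6. With the GC and length trend removed, they were both below in 7 of 13 and both above in 2. Cr2, Fcer2a and Cd22 were below in either case, whereas Bank1 no longer showed a split and Ms4a1 showed the opposite one. The transcripts of Bank1 and Ms4a1 have GC contents of 39.0% and 40.6%.

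Cd37 and Cxcr5 were lower in every library with the Dmp1Cre.EfnB2f/f label than in each control. Cd37, a tetraspanin of mature B cells that other leukocytes also carry, was at 65.1, 65.8 and 63.5 CPM against 78.1, 72.4, 70.5 and 89.4 CPM. The means were 64.8 ± 1.17 CPM (SD, n = 3) and 77.6 ± 8.48 CPM (SD, n = 4), with a log2 fold change of -0.26 (SE 0.15), an edgeR adjusted p of 0.524 and a two-sided exact permutation p of 0.0571. Cxcr5, the chemokine receptor that guides B cells into follicles, was at 7.89, 7.24 and 7.33 CPM against 10.05, 12.8, 8.61 and 8.21 CPM. The means were 7.49 ± 0.355 CPM (SD, n = 3) and 9.91 ± 2.07 CPM (SD, n = 4), with a log2 fold change of -0.40 (SE 0.21), an edgeR adjusted p of 0.517 and a two-sided exact permutation p of 0.0857. The span of Cxcr5 overlaps that of Bcl9l, another protein-coding gene.

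Ltb, the gene of lymphotoxin beta, a ligand with which lymphocytes organize lymphoid tissue, was the member with the lowest p on the lower side. It was at 13.3, 19.2 and 15.3 CPM in the libraries with the Dmp1Cre.EfnB2f/f label and at 25.6, 25.0, 17.1 and 26.7 CPM in the controls. Control 3 was within the range of the other group and the remaining controls were above it. The means were 15.9 ± 3.00 CPM (SD, n = 3) and 23.6 ± 4.40 CPM (SD, n = 4), for a log2 fold change of -0.57 (SE 0.22) with an edgeR p of 0.0285 before and 0.511 after adjustment. With the GC and length trend removed, the log2 fold change was -0.40 (SE 0.19) for Ltb, -0.33 (SE 0.24) for Cxcr5 and -0.09 (SE 0.12) for Cd37.

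T cells also make lymphotoxin beta. The 13 T and NK cell markers summed to 101.4 to 118.5 CPM in the libraries with the Dmp1Cre.EfnB2f/f label and to 108.5 to 141.3 CPM in the controls. Their part in the Ltb values was not tested. Of the other mature genes, Cd72, a receptor that dampens B cell signalling, and Fcrla, an intracellular Fc receptor-like protein, were at 26.5 to 41.1 CPM and 30.1 to 40.5 CPM in the libraries with the Dmp1Cre.EfnB2f/f label. In the controls Cd72 was at 21.1 to 34.1 CPM and Fcrla at 21.8 to 46.1 CPM, both with controls 1 and 4 above controls 2 and 3. For Cd72 the log2 fold change was 0.25 (SE 0.23), with an edgeR adjusted p of 0.640. Removing the GC and length trend gave 0.43 (SE 0.14), with an edgeR p of 0.0135 before and 0.295 after adjustment. Siglecg, an inhibitory lectin, was at 47.1 to 56.7 CPM and 44.2 to 61.9 CPM.

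**Figure D3:**
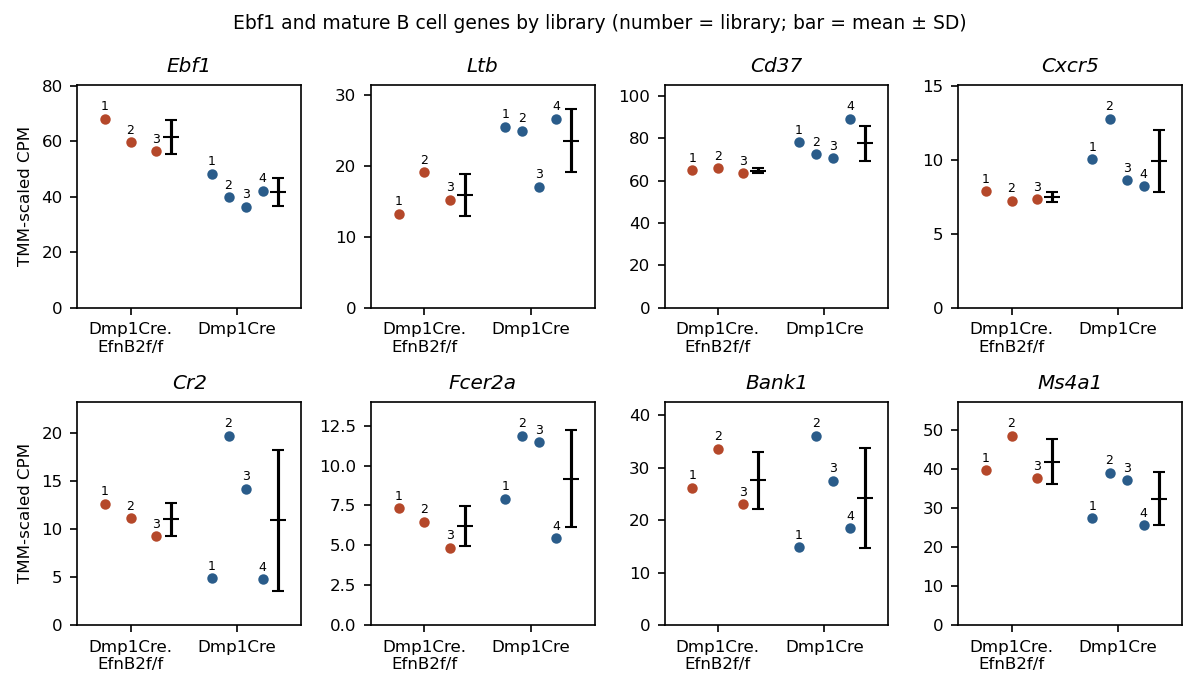
TMM-scaled CPM (y axis, from 0) of Ebf1 and 7 mature B cell genes in each library, with the library's number beside its point and the mean ± SD (n = 3 and 4) as a black bar. The groups do not overlap for Ebf1, Cd37 and Cxcr5, and in Cr2 controls 2 and 3 are the highest libraries while controls 1 and 4 are the lowest.

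The antigen presentation genes are used by B cells and by dendritic cells and macrophages. Cd74 was at 469, 592 and 373 CPM in the libraries with the Dmp1Cre.EfnB2f/f label and at 571, 478, 405 and 524 CPM in the controls, with a log2 fold change of -0.05 (SE 0.23) and an edgeR adjusted p of 0.927. Ciita, the master activator of class II genes, was at 36.0, 44.5 and 33.8 CPM against 41.2, 47.4, 38.4 and 37.7 CPM, with a log2 fold change of -0.11 (SE 0.17) and an edgeR adjusted p of 0.767. In both genes Dmp1Cre.EfnB2f/f 2 was above and Dmp1Cre.EfnB2f/f 3 below most controls. The 12 dendritic cell and class II markers summed to 545 to 887 CPM and 618 to 830 CPM, also highest in Dmp1Cre.EfnB2f/f 2 and lowest in Dmp1Cre.EfnB2f/f 3.

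The balance of precursor to mature genes was taken as the mean log2 CPM of the 8 precursor genes minus that of the 13 mature genes. It was -1.18, -1.99 and -1.16 in the libraries with the Dmp1Cre.EfnB2f/f label and -1.43, -2.52, -2.13 and -1.12 in the controls. The group means were -1.44 ± 0.473 (SD, n = 3) and -1.80 ± 0.641 (SD, n = 4), a difference smaller than the spread between controls. Dmp1Cre.EfnB2f/f 1 and 3 and controls 1 and 4 had high values, and Dmp1Cre.EfnB2f/f 2 and controls 2 and 3 low ones. With the GC and length trend removed, the values were -1.18, -2.01 and -1.18 in the libraries with the Dmp1Cre.EfnB2f/f label and -1.32, -2.59, -2.20 and -1.06 in the controls, in nearly the same places. Levels were also set against those of the receptor chains. The sum of Cd79a and Cd79b was 124, 165 and 131 CPM in the libraries with the Dmp1Cre.EfnB2f/f label. In controls 1 to 4 it was 163, 105, 93.1 and 175 CPM, so the shares below also carry the split of the controls in this sum. The summed CPM of Vpreb1, Vpreb2, Vpreb3 and Igll1 was 35.1%, 20.6% and 38.6% of that of Cd79a and Cd79b in the libraries with the Dmp1Cre.EfnB2f/f label and 33.1%, 17.3%, 24.3% and 40.2% in the controls. For Cr2, Fcer2a and Cxcr5 together the share was 22.6%, 15.1% and 16.4% against 14.0%, 42.3%, 36.9% and 10.5%. Controls 2 and 3 had the highest values of the latter share, while Dmp1Cre.EfnB2f/f 2 lay below Dmp1Cre.EfnB2f/f 1 and 3 in both shares. The ratio of Igll1 to Cr2 counts ran from 0.199 in control 2 to 3.19 in control 4.

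**Figure D4:**
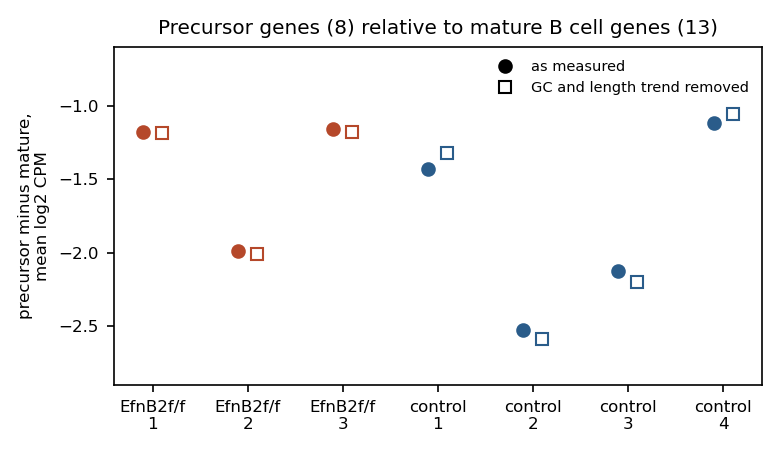
Mean log2 CPM of the 8 precursor genes minus that of the 13 mature B cell genes (y axis) in each of the 7 libraries (x axis); filled circles are values as measured and open squares are values after removal of each library's GC and length trend. Controls 2 and 3 have the lowest values and control 4 the highest, by either measure.

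Immunoglobulin genes, which were left out of the test as in the study, were read beside the members as levels. Ighm, the mu heavy chain of precursors, naive B cells and early plasma cells, was at 413, 1334 and 543 CPM in the libraries with the Dmp1Cre.EfnB2f/f label and at 625, 579, 543 and 1065 CPM in the controls. Ighd, the delta chain that marks mature naive B cells, was at 27.4, 26.4 and 18.2 CPM and at 16.8, 33.5, 20.3 and 14.6 CPM. Among the controls it had the order of Cr2, with control 2 highest and control 4 lowest. Ighd was 2.69%, 5.79%, 3.73% and 1.37% of Ighm in controls 1 to 4, and 6.63%, 1.98% and 3.35% in the other group. Plasma cells, the secreting end of the lineage, are marked by Jchain, which joins secreted IgM and IgA. Jchain was at 274, 378 and 281 CPM in the libraries with the Dmp1Cre.EfnB2f/f label and at 87.3, 236, 161 and 196 CPM in the controls, without overlap, and its log2 fold change of 0.87 (SE 0.32) had an edgeR adjusted p of 0.511. Of the 7 plasma cell markers tested, 3 were higher, 4 lower and 0 past the threshold. Jchain was the single marker of the 7 without overlap, on a side where 5.05% of all genes had none.

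Other genes of the lineage gave the same picture of the genotypes. Of 28 further B lineage genes, 27 were tested, 11 had a higher and 16 a lower fitted level in the libraries with the Dmp1Cre.EfnB2f/f label, the median log2 fold change was -0.10, and 0 passed the threshold. The groups did not overlap for Tnfrsf13c, the BAFF receptor, which was higher at 14.7 to 18.4 CPM against 12.4 to 14.0 CPM. They did not overlap either for Tlr9 and Cd180, innate receptors of B cells and myeloid cells, which were lower. These were 1 higher and 2 lower of 27 genes, on sides where 5.05% and 6.3% of all genes did not overlap. Tlr9 was at 9.84 to 12.8 CPM against 13.1 to 23.6 CPM, and Cd180 at 12.0 to 14.0 CPM against 15.5 to 20.3 CPM.

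Of 12 factors that stromal and other cells supply to B cells, 11 were tested, 5 with a higher and 6 with a lower fitted level, the median log2 fold change was -0.06, and 0 passed the threshold. The groups did not overlap for 2 higher and 2 lower factors, on sides where 5.05% and 6.3% of all genes did not. Il7, the cytokine ligand of Il7r, was at 5.22, 4.61 and 5.69 CPM in the libraries with the Dmp1Cre.EfnB2f/f label and at 2.59, 2.97, 4.39 and 3.80 CPM in the controls, higher in each of the former, with a log2 fold change of 0.59 (SE 0.25) and an edgeR adjusted p of 0.511. Igf1, a growth factor that acts with IL-7 on precursors, also did not overlap, at 39.1 to 56.8 CPM against 24.7 to 37.6 CPM, with an edgeR adjusted p of 0.511. The 2 lower factors were Tnfsf13b (BAFF) and Tnfsf13 (APRIL), which sustain mature B cells and plasma cells. Tnfsf13b was at 9.89 to 10.6 CPM against 10.8 to 16.7 CPM, with an edgeR adjusted p of 0.517, and Tnfsf13 at 1.95 to 2.06 CPM against 2.85 to 4.29 CPM, with an edgeR adjusted p of 0.511. Cxcl12, which holds precursors in the marrow, was at 1108 to 1363 CPM and 833 to 1403 CPM.

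Marker genes of other cells were uneven between libraries. Neutrophil markers summed to 12116 to 15140 CPM in the libraries with the Dmp1Cre.EfnB2f/f label and to 17309 to 20570 CPM in the controls, with 9 of 9 genes lower. For erythroid markers the sums were 3437 to 8307 CPM and 9692 to 25602 CPM, with 6 of 6 lower, and for skeletal muscle markers 19854 to 33724 CPM and 9180 to 20807 CPM, with 6 of 6 higher. Monocyte and macrophage markers summed to 602 to 674 CPM and 731 to 966 CPM, with 6 of 6 lower. In each of these lists 0 genes passed the threshold. Osteoblast and osteocyte markers summed to 8398 to 13942 CPM in the libraries with the Dmp1Cre.EfnB2f/f label and to 40751, 8234, 8707 and 19928 CPM in controls 1 to 4, sums that were mostly Col1a1. By the median log2 deviation of its 8 genes from their means, the list was highest in control 1 at 1.20, while control 4 was at -0.34 and the remaining libraries were between -0.84 and 0.61. What part retained marrow, muscle or bone RNA had in the members' values was not tested.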

How the data were processed

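RNA from 7 flushed femora was sequenced. According to the labels and the study's methods, the authors demultiplexed reads with bcl2fastq 2.17.1.14, mapped them to mm10 and counted them per Entrez gene with featureCounts. They deposited raw counts per gene, with no normalization, filter or pooling. Strand use in counting is not given in the sources used here, so members whose spans overlap another protein-coding gene (Rag2, Cd72, Fcer2a, Cxcr5 and Ciita) carry that uncertainty. Totals were 17245556 to 22075778 counts. Whether the libraries of a group came from separate mice is not stated beyond the labels, and p-values measure the spread between these libraries.

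The members and gene lists were chosen with earlier results of these data known. The 34 members were fixed by symbol, with roles assigned by name. Fold change, error and p were given for the 2 members of each role with the lowest p and for members whose groups did not overlap. They were also given for Cd72 and Ikzf1, which had an unadjusted p under 0.05 with the GC and length trend removed. Genes of other lists were named where a member result turned on them or their groups did not overlap. A gene had to reach 0.65 CPM in 3 or more libraries (16302 did), and 1204 immunoglobulin segments, pseudogenes, predicted and unnamed genes and similar classes were left out as in the study, which left 15098. These were tested with edgeR 4.0.16 (TMM, robust quasi-likelihood) in R 4.3.3, Benjamini-Hochberg adjusted over all of them at a threshold of 0.05. Each SE was derived from the fold change and its F statistic (log2 fold change over the root of F). For single genes an exact two-sided permutation test used all 35 assignments of libraries to groups. DESeq2 1.42.0 and limma 3.58.1 (prior count 2, quantile normalization, with and without sample weights, no day block), other scalings and filters, blocks and left-out libraries were alternatives. GC content and length were those of the longest GENCODE transcript of each gene, found for 34 of 34 members and 14434 of 15098 genes, and each library's smooth trend was passed to edgeR as an offset. Positions and promoters are from RefSeq GRCm38.p6, the build of mm10, and 27 of 34 members had a promoter. Balances between genes used log2 of CPM plus 0.5. The code was tested on simulated data.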

Additional observations from a re-analysis of the deposited data

Results flagged for a closer look

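Dntt, the gene of the enzyme that adds untemplated bases to recombining gene ends, was the single member for which 1 control lay far from the others. Control 4 was at 21.7 CPM and the nearest of the other 3 controls at 15.3 CPM, a gap of 0.862 of the whole range of the 4 controls. Over 34 members, chance gives about 1.7 such cases. Control 4 also had the highest level of Vpreb1, Vpreb2, Vpreb3 and Igll1 of the 7 libraries.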

How the results depend on the processing

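Across all genes edgeR called 0, DESeq2 72, the weighted limma analysis 2246, the replicate block 1, the fit without controls 1 and 4 gave 2, and fits that left out 1 library gave 0 to 2 (2 without Dmp1Cre.EfnB2f/f 3 or without control 4). Among members, weighted limma called 11 and every other alternative 0. At an unadjusted edgeR p under 0.05 there were 2 members, where 4.63% of all genes were higher and 5.03% lower. There were 5 members with library size only, 21 with weighted limma, 4 with unweighted limma, 6 with the replicate block and 19 without controls 1 and 4. Removal of the GC and length trend left 2, Cd72 and Ikzf1, in place of Ebf1 and Ltb. With 1 library left out there were 1 to 6 (1 without Dmp1Cre.EfnB2f/f 1 or 3 or control 1, and 6 without control 4). The share of all genes at this p is not given for the alternatives, so their member counts cannot be read against a background. The median log2 fold change of the precursor genes came to 1.19 under the parent cross block, 1.08 without controls 1 and 4 and 0.24 with the GC and length trend removed. Controls 1 and 4 were the upper controls in 7 of the 8 precursor genes, so leaving them out raises the fold changes of these 7. With 1 library left out the precursor median ran from 0.16 (without Dmp1Cre.EfnB2f/f 1) to 0.67 (without Dmp1Cre.EfnB2f/f 2), from 0.44 with all. The median of the mature genes was -0.15 with the parent cross block. Over all members it was 0.28 with weighted limma, 0.38 with the parent cross block and 0.37 without controls 1 and 4. The parent cross block rests on the 1 cross with both genotypes. Signs turned for Tcf3, to 0.33 with the parent cross block and 0.0808 without controls 1 and 4, and for Cd74, to 0.034 with library size only, 0.31 and 0.11 with weighted and unweighted limma, 0.12 without controls 1 and 4, 0.12 with the GC and length trend removed, and a range of -0.23 to 0.10 with 1 library left out. The cause was not tested. The other 9 members picked by low p or by groups apart kept their sign in 19 of 19 alternatives. Members outside this choice were more mixed. Signs turned in 10 alternatives for Cd79a and in 9 for Vpreb3, Blk and Cr2. They turned in 1 to 7 for Bank1, Cd79b, Dntt, Ikzf3, Pou2af1, Siglecg, Spib, Vpreb1 and Vpreb2. Bach2, Cd22, Cd72, Fcer2a, Fcrla, Igll1, Ikzf1, Ms4a1, Pax5 and Rag2 kept their sign throughout. The log2 fold change of Ebf1 ran from 0.20 to 0.69. The limma analysis without weights, the fit without controls 1 and 4 and the GC and length correction were added after the data were seen.

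Same-numbered libraries did not deviate together (correlations of -0.15, 0.07 and -0.44 for numbers 1 to 3), so the numbers are not taken as pairs, and the replicate block (6 libraries, without control 4) changed no call of a member. With 3 and 4 libraries, a difference the size of the spread among controls could not be told from 0 for the precursor genes, and Vpreb2 is further limited by its 3 to 24 counts.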
